A study of Mus musculus with 29 samples.

Results

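The transcription factors IRF8 and PU.1 were compared for where they sat on the genome of adult mouse microglia, the resident macrophages of the brain. The comparison used 5 of the 25 deposited peak lists: 3 libraries of IRF8 and 2 of PU.1. IRF8 was mapped in sorted microglia of female IRF8-EGFP mice with an antibody against GFP, and PU.1 in sorted microglia of female WT mice with an antibody against PU.1; all were 3 months old. Overlapping peaks of a factor's libraries were merged, and a merged region that 2 or more of them supported was called a consensus region. The IRF8 consensus held 16935 regions and the PU.1 consensus 5359. Joined wherever they shared at least 1 bp, they gave 17607 sites: 4576 co-bound, 12355 with an IRF8 consensus region only and 676 with a PU.1 consensus region only. The 20 other lists served as readouts that had no part in this choice. They were IRF8 in IRF8-EGFP microglia of postnatal day 9 (P9, 4 libraries) and day 14 (P14, 3 libraries) and in peritoneal macrophages (3 libraries), and PU.1 in IRF8KO, and H3K27ac and H3K4me1 in WT and IRF8KO adult microglia (2 libraries each). Per the labels, the 3 adult IRF8 libraries fall into batch 1 (replicates 1 and 2) and batch 2 (replicate 3). Factor, strain and antibody changed together between the 2 sets, so a difference between IRF8 and PU.1 cannot be told apart from a difference between strains or antibodies. No label says whether the libraries of a group came from separate animals.

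PU.1, encoded by Spi1, is an ETS-family factor needed for macrophages to form, and it opens and holds enhancers of myeloid genes. IRF8 is an interferon regulatory factor that binds DNA weakly alone, and more firmly with a partner. With PU.1 it occupies composite elements, in which an ETS core lies next to an IRF core. With other IRF or STAT proteins it is found at interferon response elements, which hold repeated IRF cores. In microglia IRF8 is known for their development and for their response to injury.

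The elements searched on both strands were GGAANNGAAA for the composite ETS-IRF element, GAAANNGAAA for an interferon response element and GAGGAAGT for a PU.1-type ETS element. The 170 genes of 9 lists described further on had 157 co-bound sites, of which 9 held the composite, 5 the interferon response and 14 the PU.1-type element within 100 bp of the site's centre. They had 274 IRF8-only sites, of which 10 held the composite, 12 the interferon response and 12 the PU.1-type element, and 12 PU.1-only sites, of which 1 held the composite, 1 the interferon response and 3 the PU.1-type element. Over all sites of the 3 classes, in the same order, the composite element was in 6.56, 6.14 and 3.11%, the interferon response element in 3.54, 4.48 and 1.92% and the PU.1-type element in 8.90, 5.05 and 17.2%. The following 50 bases (GRCm38, read on the strand of the element, the element in capitals) show what the elements looked like at co-bound sites. They were chosen after their values were seen. A match is a run of letters and not a measured contact.
Inpp5d intron, composite, co-bound, chr1:87650864-87650913: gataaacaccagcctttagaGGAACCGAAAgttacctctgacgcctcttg
Sirpa intergenic, composite, co-bound, chr2:129575309-129575358: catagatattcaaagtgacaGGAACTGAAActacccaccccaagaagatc
Tlr2 intergenic, composite, co-bound, chr3:83863138-83863187: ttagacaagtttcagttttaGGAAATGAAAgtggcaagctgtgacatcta
Tyrobp intergenic, PU.1-type, co-bound, chr7:30394638-30394687: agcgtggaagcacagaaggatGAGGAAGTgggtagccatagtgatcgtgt
Runx1 intergenic, PU.1-type, co-bound, chr16:92874226-92874275: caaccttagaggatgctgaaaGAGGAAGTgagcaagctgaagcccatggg

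The same elements lay at sites where the consensus held 1 factor only, shown here for comparison in the same way.
Psmb9 intergenic, composite, IRF8 only, chr17:34180699-34180748: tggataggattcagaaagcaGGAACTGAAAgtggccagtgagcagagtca
Cltc intron, composite, IRF8 only, chr11:86739153-86739202: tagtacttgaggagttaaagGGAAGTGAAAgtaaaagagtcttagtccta
Bst2 promoter, interferon response, IRF8 only, chr8:71537567-71537616: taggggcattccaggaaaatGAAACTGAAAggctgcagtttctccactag
Klf4 intergenic, PU.1-type, PU.1 only, chr4:55623480-55623529: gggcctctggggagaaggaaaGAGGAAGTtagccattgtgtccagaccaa
Mef2a intron, PU.1-type, PU.1 only, chr7:67318882-67318931: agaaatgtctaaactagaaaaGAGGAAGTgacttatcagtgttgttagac

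The strength of each library at a few of these elements follows. Strength is the authors' pileup, the fragment coverage at the summit, given as a percentile within that library's own list, because lists are not on a common scale. At the Sirpa element the IRF8 percentiles were 84.3, 92.7 and 30.5 in replicates 1 to 3, and the PU.1 percentiles 59.2 and 74.9 in replicates 1 and 2. At the Psmb9 element, in the locus of an immunoproteasome subunit, the IRF8 percentiles were 54.5, 91.4 and 89.5, and neither PU.1 library listed a peak. At the Bst2 element, in the promoter of the antiviral protein tetherin, the IRF8 percentiles were 88.7, 91.4 and 95, and again no PU.1 peak was listed. The Cltc element had IRF8 percentiles of 85.9, 98.6 and 67.9, and a peak in PU.1 replicate 1 at percentile 93.7 but none in replicate 2. The Mef2a element, by contrast, had PU.1 percentiles of 51.7 and 6.41 and no IRF8 peak in any library. The Klf4 element, in a PU.1-only site 91063 bp from the start, had an IRF8 peak in replicate 2 alone, at percentile 51.55. All 3 P14 and all 3 peritoneal macrophage IRF8 libraries listed that site. Thus a site that lacks the other factor's consensus can still hold a peak of that factor in 1 library, as at Cltc and Klf4.

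PU.1 regions were mostly also IRF8 regions, and most IRF8 regions were not PU.1 regions. Of the PU.1 consensus, 87.4% overlapped the IRF8 consensus, and of the IRF8 consensus 27% overlapped that of PU.1. The sites were thus 26% co-bound, 70.2% IRF8 only and 3.84% PU.1 only. The smallest class moved most with single libraries: PU.1-only sites numbered 1665 without IRF8 replicate 1, 1874 without IRF8 replicate 2, 3330 without PU.1 replicate 1 and 6228 without PU.1 replicate 2, when 68.9, 65.0, 64.9 and 55.7% of PU.1 regions overlapped IRF8. IRF8-only sites numbered 6928 and 5296 without IRF8 replicates 1 and 2, and co-bound sites 7461 without PU.1 replicate 2; the overlapping share of IRF8 regions was then 34.2, 39.4 and 44.1%. These shares depend on the rule, which asked for 2 of 3 IRF8 libraries but for both PU.1 libraries. With all 3 IRF8 libraries required, 66.3% of PU.1 regions overlapped IRF8 and 40.1% of IRF8 regions overlapped PU.1. The shares also depend on the lengths of the lists. These held 17048, 29667 and 22421 regions for IRF8 replicates 1 to 3 and 14057 and 9490 for PU.1 replicates 1 and 2. The fragments behind them numbered 7.51, 24.7 and 7.25 M (mega) for IRF8 and 8.95 and 17.3 M for PU.1. When each list was reduced to its 9490 strongest regions, the overlap of an IRF8 with a PU.1 library was 36.3 to 52.4% over the 6 pairs, taken in either direction. The 2 PU.1 libraries overlapped each other by 51.8%. IRF8 replicates 1 and 2, of the same batch, overlapped by 72.1 to 74.1%, and each overlapped replicate 3, of the other batch, by 53.6 to 57%. At equal length the batch 1 IRF8 libraries thus coincided with a PU.1 library in 47.2 to 52.4% of the strongest regions, near the value of the PU.1 pair, and IRF8 replicate 3 in 36.3 to 38.7%, below it.

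Many sites outside the co-bound class held a peak of the other factor in a single library. Of the 12355 IRF8-only sites, 8238 (66.7%) had no PU.1 peak at all, 2750 had one in PU.1 replicate 1 alone and 1231 in PU.1 replicate 2 alone. In 136 both libraries had a peak, but the peaks did not overlap each other. Of the 676 PU.1-only sites, 254 had no IRF8 peak in any library and 418 had one in a single IRF8 library. That library was replicate 2, the deepest, in 348 cases. Support within a factor also differed: 3451 of the 4576 co-bound sites (75.4%) had peaks in all 5 libraries. IRF8 regions found in 3 libraries were co-bound in 40.1% of cases and those found in 2 libraries in 13.6%.

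Co-binding rose steadily with strength. Ordered by mean IRF8 percentile into deciles, the IRF8 consensus was co-bound in 5.55% of its weakest decile, 18.6% of the fifth and 70.9% of the strongest. For PU.1 the share went from 75% in the weakest to 97.4% in the strongest. The strongest regions of the 2 factors were nevertheless not the same ones in the same order. Of the 500 strongest IRF8 regions, 36.0% lay among the 500 strongest PU.1 regions, while 81.0% lay somewhere in the PU.1 consensus. Of the 500 strongest PU.1 regions, 97.4% lay somewhere in the IRF8 consensus.

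**Figure D1:**
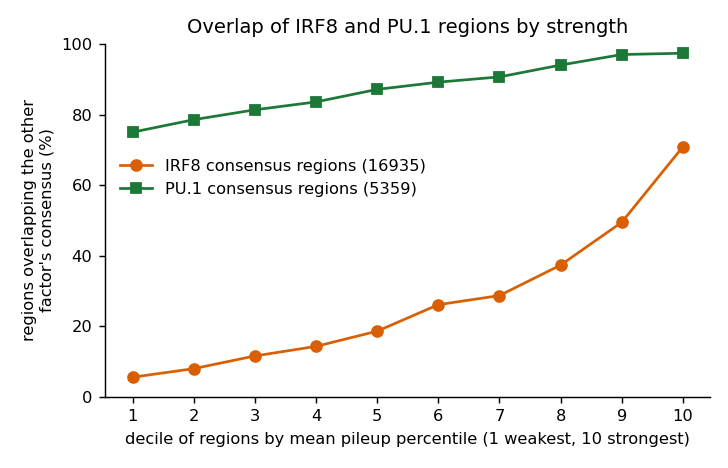
Share of consensus regions that overlap the other factor's consensus (y axis, percent) for deciles of the regions ordered by mean pileup percentile (x axis, 1 weakest, 10 strongest), for IRF8 (circles) and PU.1 (squares). The IRF8 share climbs from 5.55% to 70.9%, and the PU.1 share from 75% to 97.4%.

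In each IRF8 library, regions at co-bound sites ranked above regions at IRF8-only sites. The median percentile at co-bound against IRF8-only sites was 77.6 against 42.1 in replicate 1, 86.5 against 62.6 in replicate 2 and 84.4 against 67.9 in replicate 3. The mean difference was 25.3 ± 9.59 percentile points (SD, n = 3 libraries, higher in 3 of 3). An exact two-sided sign-flip permutation test over libraries gave p = 0.25 (adjusted p = 0.25 over 8 such tests), the smallest p that 3 libraries allow. Within batch 1 the differences were 35.5 and 23.9, and in the lone library of batch 2 the difference was 16.5. The quartiles of the 2 classes overlapped in every library, so rank alone does not separate them. For PU.1, regions at co-bound sites had median percentiles of 80.1 and 71.1 in replicates 1 and 2, and those at PU.1-only sites 59.2 and 54.9. With 2 libraries no test was made. The mean PU.1 difference was 18.5 points, and 32.4 and 32.7 points without PU.1 replicates 1 and 2.

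**Figure D2:**
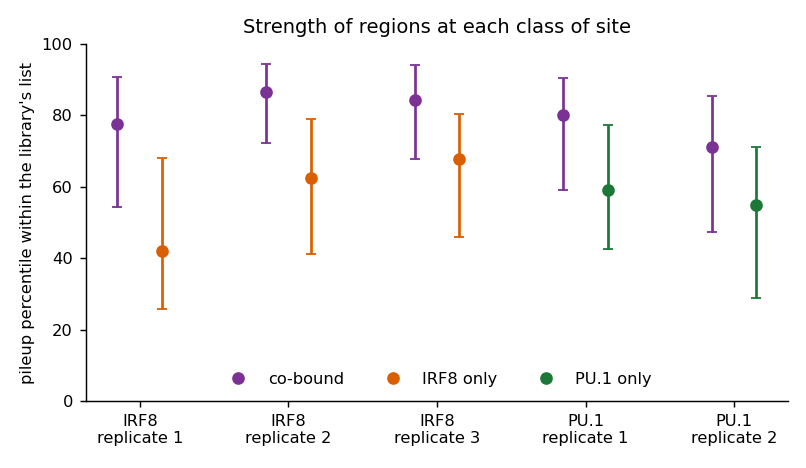
Pileup percentile within each library's own list (y axis) for regions at co-bound, IRF8-only and PU.1-only sites in the 3 IRF8 and 2 PU.1 libraries (x axis). Points are medians and bars run from the lower to the upper quartile over regions. The co-bound median is the higher one in all 5 libraries, from 71.1 to 86.5.

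The weight of the strongest regions fell to the co-bound class in the same way. The top decile of a library's list held 26.2, 40.3 and 33.8% of the co-bound regions with a peak in IRF8 replicates 1 to 3 (n = 4426, 4557 and 3627). Of the IRF8-only regions with a peak in these libraries it held 4.63, 9.35 and 11.4% (n = 10552, 12166 and 7148). In PU.1 replicates 1 and 2 it held 27.5 and 18% of the co-bound and 7.99 and 6.21% of the PU.1-only regions. Because pileups are small whole numbers, with a median of 10 to 45 fragments at these classes of IRF8 region, many regions share a percentile.

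Co-bound regions were also wider. The median width of an IRF8 consensus region was 1443 bp at co-bound sites and 981 bp at IRF8-only sites. In single libraries the co-bound against IRF8-only medians were 861 against 582.5 bp, 1299 against 843 bp and 550 against 408 bp. PU.1 consensus regions had a median width of 706 bp at co-bound and 559 bp at PU.1-only sites. Without IRF8 replicate 2, the deepest, the difference between the 2 IRF8 medians fell from 462 to 273 bp. A wider region overlaps others more easily, and width rose with strength among the deciles, from 767 bp in the weakest IRF8 decile to 1787 bp in the strongest. The part of width in the overlap was not tested.

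The classes differed in where they lay. A site was called a promoter site when its centre lay within 1 kb of the start of a protein-coding transcript. Promoter sites made up 21.4% of co-bound (979), 29.6% of IRF8-only (3660) and 12.6% of PU.1-only sites (85). Introns held 40.5, 37.9 and 45.3% of the 3 classes, sequence between genes 35.5, 29.7 and 39.6%, and exons the small remainder. The median distance to the nearest start was 11924 bp for co-bound, 8145 bp for IRF8-only and 15838 bp for PU.1-only sites. PU.1 without IRF8 was thus the most distal class and IRF8 without PU.1 the class nearest to starts. With a −log10 p of at least 10 in every list, the promoter share of IRF8-only sites exceeded that of co-bound sites by 4.51 points, and that of co-bound exceeded that of PU.1-only sites by only 0.454. The second of these differences, 8.82 points with the full lists, was 3.98 and 4.82 without IRF8 replicates 1 and 2 and 14.3 and 14.1 without PU.1 replicates 1 and 2.

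The promoter share of IRF8-only sites went with weak IRF8 signal. In 5 strata of IRF8 percentile, from weakest to strongest, promoters made up 34.1, 30.8, 30.4, 26.1 and 21.0% of IRF8-only regions. Among co-bound regions they made up 16.2, 25.6, 20.2, 24.2 and 19.9%. The gap between the classes was thus widest in the weakest stratum and nearly closed in the strongest. Read the other way, 58.9% of promoter regions and 60.5% of distal regions of the strongest stratum were co-bound, against 3.32 and 8.45% in the weakest.

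The composite and PU.1-type elements were less frequent under the summits than beside them. The summit is the base of highest coverage that the peak caller reports. At co-bound sites the PU.1-type element was found within 50 bp of the IRF8 summit in 1.92% of sites, at 50 to 100 bp in 3.52%, at 100 to 150 bp in 11.7%, at 150 to 200 bp in 9.07% and at 250 to 300 bp in 1.55%. Around the PU.1 summit of the same sites these shares were 2.27, 4.59, 14, 7.19 and 1.92%. The composite element followed the same course, with 1.75% within 50 bp of the IRF8 summit and 7.80% at 100 to 150 bp at co-bound sites, and 1.37 and 6.89% at IRF8-only sites. Every library of the 5 had its highest co-bound share at 100 to 150 bp for both elements; for the PU.1-type element that share was 11.2, 11.8 and 8.0% in IRF8 replicates 1 to 3 and 13.6 and 13.7% in PU.1 replicates 1 and 2. These distances were examined after the elements had been found to be scarce at the summits.

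**Figure D3:**
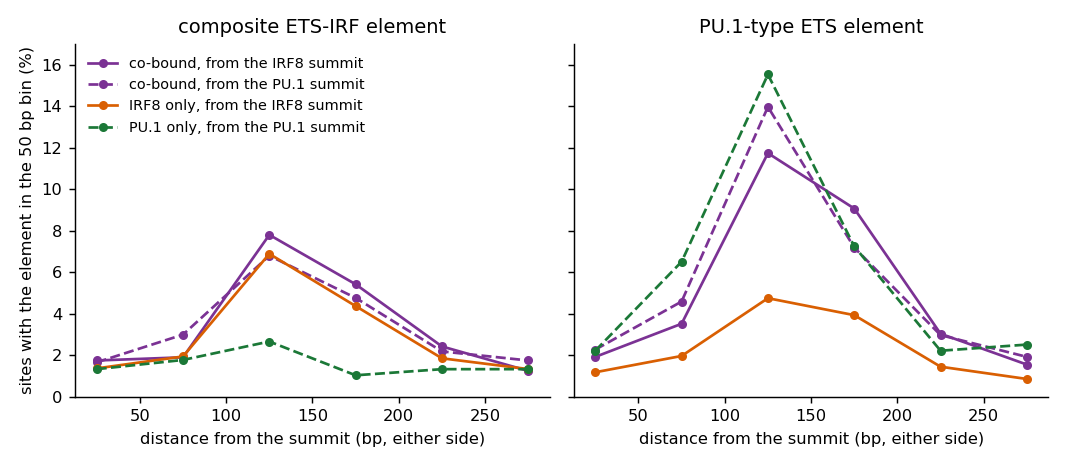
Share of sites (y axis, percent) that hold the composite ETS-IRF element (left) or the PU.1-type ETS element (right) in 50 bp bins of distance from the strongest summit, both sides added (x axis, bp), by class and by the factor whose summit is used. The curves that stand above 4% have their highest point at 100 to 150 bp, such as 14% for the PU.1-type element around PU.1 summits of co-bound sites.

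Within 200 bp of the IRF8 summit, the composite element was present in 16.3% of all co-bound and 13.9% of all IRF8-only sites, and the PU.1-type element in 24.5 and 11.3%. Among distal sites the composite element was present in 17.6% of co-bound and 16.8% of IRF8-only sites around IRF8 summits, and in 6.94% of PU.1-only sites around PU.1 summits. Windows of the same size 1 kb away held it in 3.05 to 4.31%. The PU.1-type element was present in 26.3% of distal co-bound and 13.7% of distal IRF8-only sites around IRF8 summits, and in 27.6 and 30.0% of distal co-bound and PU.1-only sites around PU.1 summits, against 1.69 to 3.39% 1 kb away. The interferon response element was present in 8.54, 9.66 and 5.92% of distal co-bound, IRF8-only and PU.1-only sites, against 4.74 to 6.94% 1 kb away. The AP-1 element (TGANTCA) was present in 14.4, 15.5 and 10.8%, against 11.2 to 13.2% 1 kb away. For PU.1-only sites the share of the interferon response element was thus within the range of the windows 1 kb away, and that of AP-1 just below it.

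In the planned windows of 100 bp around the centre, elements were scarcer, and the composite element differed between co-bound and IRF8-only sites by less. Beside the shares over all sites given above, it was present in 1.58% of windows at all protein-coding starts. Among distal sites it was in 7.26% of co-bound and 7.60% of IRF8-only windows, the opposite order to that over all sites. The difference of 0.414 points between all co-bound and IRF8-only sites changed sign without PU.1 replicate 1 (-0.0272) and without PU.1 replicate 2 (-0.397). The order of the PU.1-type element, highest at PU.1-only sites, was the same in both windows. The GC box (GGGCGG), typical of promoters, was present in 9.03, 15.1 and 6.95% of the classes. Within promoter sites it was present in 27.6% of co-bound and 40.5% of IRF8-only windows, beside 37.4% at all protein-coding starts.

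Both factors' summits tended to fall on the same side of an element. Among co-bound sites with a single composite element within 500 bp of the centre and both summits 50 to 200 bp from it, the IRF8 and PU.1 summits lay on the same side in 289 of 377 sites (76.7%). For the PU.1-type element the count was 454 of 600 (75.7%). The IRF8 summit lay past the 3′ end of the composite element in 51.9% of sites and the PU.1 summit in 49.5%. For the PU.1-type element the IRF8 summit lay past the 3′ end in 45.7%, and for the composite element at IRF8-only sites in 53.6%. The same-side placement was not particular to co-bound sites. Where both summits were so placed at IRF8-only sites, the share was 67.6% (173 of 256) for the composite and 73.25% (230 of 314) for the PU.1-type element. At PU.1-only sites it was 66.7% (10 of 15) and 71.0% (49 of 69). These are descriptions over sites that share libraries, with no test. The share expected from the closeness of the summits alone was not computed. The distance between the summits of the 2 factors at a co-bound site had a median of 64 to 117 bp over the 6 library pairs. Between libraries of the same factor it was 33, 88 and 111 bp for the IRF8 pairs and 58 bp for the PU.1 pair. The pairs with IRF8 replicate 3, of batch 2, gave the longest distances for both kinds.

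Libraries that had no part in defining the classes separated them. IRF8 lists of younger microglia overlapped co-bound sites more often than IRF8-only sites in 7 of 7 libraries. At P9 the 4 libraries listed 19.7, 17.3, 27.7 and 16.7% of co-bound sites, and 2.44, 2.03, 5.25 and 2.57% of IRF8-only sites. At P14 the 3 libraries listed 69.3, 91.1 and 62.7% of co-bound sites, and 26.6, 60.1 and 23.6% of IRF8-only sites. Within a stage no library of IRF8-only values reached the lowest co-bound value. The mean difference was 26 ± 11.7 percentage points (SD, n = 7), with p = 0.01562 by an exact two-sided sign-flip permutation test over libraries, the smallest that 7 libraries allow, and an adjusted p of 0.025 over 8 tests. Without strata, it was 26.1 ± 12.4 points at promoters and 25.9 ± 11.6 at distal sites. Most co-bound sites were strong, so the comparison was repeated within strata of adult IRF8 percentile. The mean difference was then 14.5 ± 4.80 points (SD, n = 7, higher in 7 of 7, exact p = 0.01562, adjusted p = 0.025). The strata did not match the classes for width or for the number of supporting libraries. In the strongest stratum of IRF8 regions the median widths were 1801.5 bp (co-bound) and 1335 bp (IRF8 only). With 200 bp around the adult summit in place of the whole site, the rank-matched difference was 13.8 ± 4.65 points (SD, n = 7, exact p = 0.01562, adjusted p = 0.025).

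The difference was wider at P14 than at P9, and the make-up of the listed sites shifted. Co-bound minus IRF8-only averaged 17.3 ± 3.69 points at P9 (SD, n = 4) and 37.6 ± 6.01 at P14 (n = 3). The stages differed by 20.3 points, with an exact permutation p of 0.02857, the smallest that 4 against 3 libraries allow. Within strength strata the stages differed by 6.55 points, with exact p = 0.05714. Of the adult IRF8 sites that a P9 library listed, 66.2 to 76.0% were co-bound in the adult, and of those that a P14 library listed, 36.0 to 49.6%. The difference in means was -27.0 points. The P9 lists were short, 1168 to 2068 regions against 7931 to 19243 at P14, and the co-bound share rises with strength. A P9 list held fewer regions than the 4576 co-bound sites, which limits the share it can list. None of these differences between stages can therefore be told apart from list length, and their p decides nothing about stage. Stage also cannot be told apart from the IgG control, which differed between stages.

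Peritoneal macrophages, macrophages of another tissue, showed the same order. Their 3 IRF8 libraries listed 70.5, 63.9 and 25% of co-bound sites and 45.6, 37.1 and 12.1% of IRF8-only sites. The difference of 21.6 ± 7.48 points (SD, n = 3) was higher in 3 of 3 libraries, with an exact permutation p of 0.25 (adjusted p = 0.25), the smallest possible. Within strata of adult IRF8 percentile it was 12.7 ± 4.78 points (SD, n = 3, higher in 3 of 3, exact p = 0.25). The library with low values in both classes was replicate 3, of batch 2, whose list held 9788 regions against 23163 and 16994.

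PU.1-only sites were listed less often than IRF8-only sites in each IRF8 library of the other stages and of peritoneal macrophages. The P9 libraries listed 0 to 1.48% of them, the P14 libraries 8.28, 33.7 and 8.88%, and the peritoneal macrophage libraries 25, 19.97 and 6.51%.

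**Figure D4:**
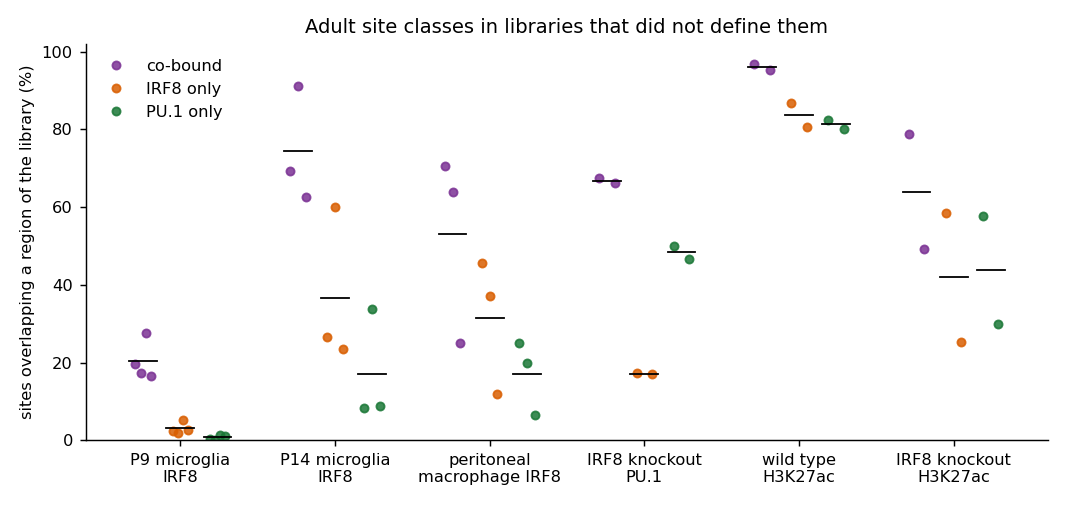
Share of co-bound, IRF8-only and PU.1-only sites of adult microglia (y axis, percent) that overlap a region of each library that did not define the classes; each point is a library and each black bar the mean of its group (x axis). Co-bound points lie above the other 2 classes within every library, for example 67.4 and 66.3% against 17.4 and 17.1% (IRF8 only) for PU.1 in IRF8 knockout microglia.

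In IRF8KO microglia, PU.1 peaks were listed at 67.4 and 66.3% of co-bound sites, 50.1 and 46.7% of PU.1-only sites and 17.4 and 17.1% of IRF8-only sites. Co-bound sites therefore kept a PU.1 peak more often than PU.1-only sites, by 17.3 and 19.5 points. Within strata of WT PU.1 percentile the difference was 10.7 and 11.5 points. Both knockout libraries listed 55.7% of co-bound sites and 35.2% of PU.1-only sites. No test was made over the 2 libraries. The PU.1-only value rests on the choice of libraries: without PU.1 replicate 1 the difference was 42.1 points and without replicate 2 it was 41.8, since a single PU.1 list then stands for the consensus. With a −log10 p of at least 10 in every list it was 3.53 points, and without IRF8 replicates 1 and 2 it was 12.3 and 12.04.

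Marks of active chromatin covered nearly all co-bound sites. H3K27ac, a mark of active promoters and enhancers, overlapped 96.8 and 95.3% of co-bound sites in the 2 WT libraries, 86.9 and 80.8% of IRF8-only sites and 82.4 and 80.2% of PU.1-only sites. The mean difference between co-bound and IRF8-only sites, 12.2 points, was 7.89 with a −log10 p of at least 10. In IRF8KO the H3K27ac lists covered 78.7 and 49.3% of co-bound, 58.5 and 25.3% of IRF8-only and 57.8 and 29.9% of PU.1-only sites. The IRF8KO libraries differed from each other by more than the classes did, with lists of 88400 and 31524 regions. H3K4me1, found at enhancers, covered 98.0 and 96.8% of co-bound, 93.4 and 89.5% of IRF8-only and 93.6 and 91.9% of PU.1-only sites in WT.

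Genes were assigned to a site when their start was the nearest protein-coding start within 100 kb. Of 21924 protein-coding genes, 13.4% had a co-bound site, 22.0% had IRF8-only sites and no co-bound site, and 2.45% had a PU.1-only site; 1.21% had 3 or more co-bound sites. As a check of the label, 7 of 8 microglia markers had a co-bound site, and the remaining marker, Tmem119, had an IRF8-only site. None of 8 neuron, 6 oligodendrocyte, 6 lymphocyte and 6 neutrophil markers had a co-bound site, but IRF8-only sites lay at 1 neuron, 2 oligodendrocyte and 1 lymphocyte marker. Markers of astrocytes had one in 1 of 6 genes (Slc1a3, which also had 8 IRF8-only sites), of endothelial cells in 3 of 6 (Cdh5, Kdr and Pecam1) and of border macrophages in 2 of 6 (Lyve1 and Mrc1). A site near a gene shows binding there and not the gene's expression.

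Of the homeostatic microglia genes, 16 of 20 had a co-bound site (background 13.4%), and the other 4 had IRF8-only sites. The count was 12 without IRF8 replicate 1 and 12 without IRF8 replicate 2. Gpr34, P2ry12 and Tgfbr2 had 4 co-bound sites each. P2ry12 encodes the purine receptor by which microglia sense tissue damage, and its strongest co-bound site lay in an intron, 2470 bp from the start. There the IRF8 percentiles were 96.6, 97.9 and 98.9 and the PU.1 percentiles 94.3 and 91.0, so that all 5 libraries had the site in their top decile. That site was listed in 19 of the 20 other libraries. The 4 genes with IRF8-only sites and no co-bound site were Crybb1, Ltc4s, Rhob and Tmem119, and those with a PU.1-only site were Cst3, Fcrls, Ltc4s and Tgfbr2. Tgfbr2, a receptor for TGF-beta, had all 3 kinds: 4 co-bound, 11 IRF8-only and 1 PU.1-only site.

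Lineage transcription factor genes had 33 co-bound and 82 IRF8-only sites, beside 4111 and 11370 over all 21924 protein-coding genes. All 24 had a co-bound or IRF8-only site, whereas 14166 of the 21924 genes had neither. Of the 24, 15 had a co-bound site (background 13.4%). With a −log10 p of at least 10 in every list, 8 of 24 did, when 1377 of 21924 genes had one. Fli1 and Fos had 5 co-bound sites each and Mef2a 4. The other 9 had IRF8-only sites and no co-bound site: Irf8 itself with 8, Cebpb with 5, Rela, Smad3 and Stat3 with 3 each, Klf4 and Sall3 with 2 each, and Bhlhe41 and Klf2 with 1 each. At Spi1, the gene of PU.1, a co-bound region of 7069 bp covered the start of the gene; its IRF8 percentiles were 94.1, 93.0 and 67.9 and its PU.1 percentiles 59.2 and 61.2. The strongest Irf8 site, 16479 bp from the start, had IRF8 percentiles of 54.5 and 77.8 in replicates 1 and 2, no peak in replicate 3 and no PU.1 peak. Klf4 and Mef2a were among those with PU.1-only sites.

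Interferon response genes had mostly IRF8-only sites. Of 22 such genes, 2 had a co-bound site (background 13.4%) and 14 had IRF8-only sites and no co-bound site (background 22.0%); 6 had no site. An IRF8-only promoter site was found at 14 of the 22 (63.6%), beside 16.2% of all genes and 9 of 18 ubiquitously expressed genes (50%). Among the 14 were Bst2, Cxcl10, Gbp2, Gbp5, Ifit2, Ifit3, Irf7, Irf9, Mx1, Oasl2, Parp14, Usp18 and Xaf1. None of the 22 had a co-bound promoter site, and with a background of 4.40% nothing is read from that count, nor from the 2 co-bound genes. Of the 21 IRF8-only sites of the list, 19 (90.5%) had no PU.1 peak in either library, beside 66.6% of IRF8-only sites over all genes. Their median IRF8 percentile was 51.0, beside 53.0 over all genes, so these were IRF8 sites of usual strength.

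Single interferon genes differed in IRF8 strength. The Bst2 site given above was strong in every IRF8 library. Usp18, which removes the ubiquitin-like ISG15, had 3 IRF8-only sites, and at the strongest, over its promoter, the IRF8 percentiles were 74.8, 68.8 and 67.9, beside a weak PU.1 peak at percentile 7.20 in replicate 1. The 2 co-bound genes were Irf1, with IRF8 percentiles of 87.4, 82.2 and 92.8 and PU.1 percentiles of 70.0 and 47.3, and Ifitm3, with 97.4, 99.2 and 98.6 for IRF8 and 82.5 and 74.9 for PU.1. Both of these sites were distal, 6257 and 11940 bp from the start. The count of co-bound interferon genes was 0 to 4 over the alternatives tried, as given under the processing.

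Of 16 antigen presentation genes, 5 had a co-bound site (background 13.4%), among them B2m, Cd74 and H2-Ab1, and 6 had IRF8-only sites alone (background 22.0%). At a −log10 p of at least 10, 1 of 16 had a co-bound site, near the 1377 of 21924 over all genes. The 6 with IRF8-only sites alone were Ciita and Nlrc5, the transactivators of class II and class I genes, H2-DMa, Psmb8, Psmb9 and Tapbp. H2-Aa, H2-DMb1, H2-Eb1, Tap1 and Tap2 had no site. Many of these genes neighbour each other on chromosome 17, so the nearest start can assign a shared element to only 1 of them.

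With the full lists, most genes of uptake and sensing had a co-bound site. Of 18 Fc receptor, complement and phagocytosis genes, 12 had a co-bound site (background 13.4%) and 9 had it at a promoter (background 4.40%). The 12 became 9 without IRF8 replicate 2. With a −log10 p of at least 10 they became 8, beside 1377 of 21924 genes. In the full lists, Sirpa had 4 co-bound sites, Syk 3 and Cd33 2. The C1qb promoter, at a gene of the first complement component, had IRF8 percentiles of 99.2, 99.6 and 98.6 and PU.1 percentiles of 98.2 and 98.0, and was listed in all 20 other libraries. C1qa, C3ar1, Fcgr3, Itgam and Mertk had IRF8-only sites and no co-bound site, and C3ar1 and Mertk each had a PU.1-only site. Of 18 growth factor receptor, Toll-like receptor and oxidase genes, 12 had a co-bound site (background 13.4%), 8 of them at a promoter (background 4.40%). With a −log10 p of at least 10, 10 of the 18 had a co-bound site. In the full lists, Inpp5d had 5 co-bound sites and Csf1r had 3. The Tlr4 promoter had IRF8 percentiles of 95.1, 97.6 and 99.6 and PU.1 percentiles of 94.3 and 83.4. Cd14, Csf2rb, Csf3r, Cybb, Lyz2 and Tlr7 had IRF8-only sites alone, and Ncf4 and Plcg2 each had a PU.1-only site.

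With the full lists, disease-associated and lysosome genes had a co-bound site in most cases. Of 19 disease-associated genes (Clec7a, not annotated as protein-coding, was left out), 12 had a co-bound site (background 13.4%), 4 of them at a promoter (background 4.40%); Fth1 had 3, and Cd9 and Ctsb had 2 each. At the promoter of Trem2, a lipid receptor of microglia, the IRF8 percentiles were 95.9, 98.0 and 97.4 and the PU.1 percentiles 93.0 and 80.9. Gpnmb, Lgals3 and Spp1 had IRF8-only sites alone, and Apoe, Cd63, Cst7 and Lpl had no site. Of 18 lysosome genes, 11 had a co-bound site (background 13.4%), 3 of them at a promoter (background 4.40%). An IRF8-only promoter site lay at 10 of the 18 (background 16.2%), beside 9 of 18 ubiquitously expressed genes. With a −log10 p of at least 10, a co-bound site was left at 7 of 18 lysosome and 8 of 19 disease-associated genes, beside 1377 of 21924 genes. In the full lists, Psap had 4 co-bound sites, Ctss 3 and Ctsb 2. Atp6v0d1, Ctsa, Ctsl, Lamp2, Laptm5 and Tfeb, the master factor of lysosome genes, had IRF8-only sites alone.

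Ubiquitously expressed genes had a co-bound site in 6 of 18 cases, above the background of 13.4%, and IRF8-only sites alone in 7 of 18 (background 22.0%). At a −log10 p of at least 10, 2 of 18 had a co-bound site, beside 1377 of 21924 genes. In the full lists, Cltc and Ywhaz had 2 co-bound sites each and Actb 1. Among the 7 were Gapdh, Pgk1, Polr2a, Rpl13a, Rplp0 and Sdha, each with 1 site at its promoter. The shares of the myeloid lists should be read beside this list as well as beside all genes, many of which are not expressed in microglia. Neither comparison was tested.

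**Figure D5:**
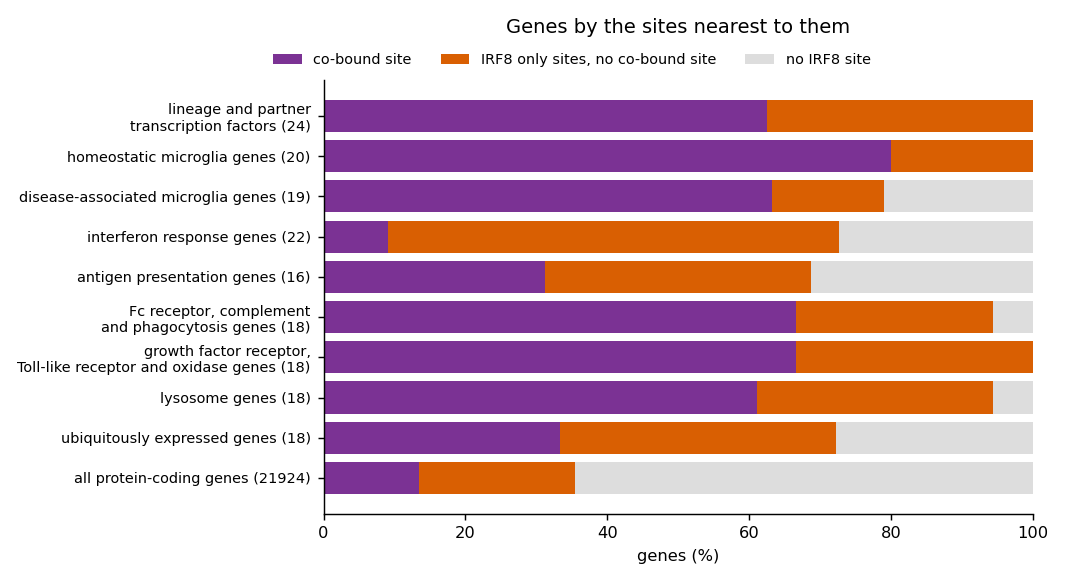
Percent of the genes of each list (x axis; number of genes found in parentheses) that have a co-bound site, IRF8-only sites without a co-bound site, or no IRF8 site. Interferon response genes have 9.09% co-bound and 63.6% IRF8 only, homeostatic microglia genes split 16 to 4, and all protein-coding genes 13.4 and 22.0%.

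The strongest sites of each class were of mixed kind. They were taken among sites with a peak in every library of the class's factors and none of the other factor. The strongest co-bound sites lay near Sfi1, Mbnl1, Gm21060, Zfp658, Sulf2 and Synpr, and 3 of them were listed in all 20 other libraries. The Mbnl1 site reached fold enrichments over the control of 98.0, 75.5 and 46.5 for IRF8 and 105 and 62.1 for PU.1. The Sfi1 site reached pileups of 273, 757 and 154 for IRF8 with folds of only 12, 8.89 and 8.78, so its control coverage was high too. The strongest IRF8-only sites lay near Cd36, Clec9a, Galnt1, Taok3, Tnfaip8 and Bcl6. Cd36 is a scavenger receptor, Clec9a a receptor for dead cells known from dendritic cells, and Bcl6 a repressor known from lymphocytes. These 6 sites were listed in 6 or 7 of the 7 younger microglia libraries, and at the Clec9a intron the IRF8 percentiles were 99.8, 99.5 and 99.6.

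The strongest PU.1-only sites lay near Rnase2a, Traf7, Mb21d2, Tmprss11g, Chst9 and Grk2. Grk2 and Traf7 are a receptor kinase and a signalling adaptor. The Rnase2a site had PU.1 percentiles of 99.9 and 99.6 and was otherwise listed only in the 2 IRF8KO PU.1 libraries. The 100 bases around its PU.1 summit, given here because they are a tandem repeat with no PU.1-type element, are set beside those of the strongest IRF8-only site, where an AP-1 element is in capitals.
Rnase2a, PU.1 only, chr14:51288420-51288519: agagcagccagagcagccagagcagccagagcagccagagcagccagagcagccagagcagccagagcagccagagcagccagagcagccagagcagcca
Cd36, IRF8 only, chr5:17854417-17854516: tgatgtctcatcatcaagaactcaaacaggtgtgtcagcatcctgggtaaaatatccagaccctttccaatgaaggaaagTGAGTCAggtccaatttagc
Of the 10 such windows taken from the strongest sites, 3 held any of the 8 elements searched within 50 bp of the summit, where few sites of any strength hold one of the composite or PU.1-type elements.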

How the data were processed

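Binding was measured by CUT&RUN, in which an antibody guides a protein A-micrococcal nuclease fusion to a chromatin protein and the released DNA is sequenced, here as pairs of 35 nt. Cells for transcription factors were fixed in 1% PFA for 10 min, per the labels' protocols. The submitters' processing notes name mm10, bcl2fastq, Trim Galore, Bowtie2, deepTools and MACS2. Per the file headers, the authors called IRF8 and PU.1 peaks for each library with MACS version 2.2.7.1, with duplicates kept, a gap of up to 640 bp and a q-value of 0.01, or 0.05 for PU.1 replicate 2 of both genotypes. Histone mark lists were called with version 2.2.6, H3K27ac at a q-value of 0.01 and H3K4me1 as broad regions at a p-value of 0.01. PU.1 replicate 2 was called against a different IgG control from that of the adult IRF8 libraries and PU.1 replicate 1. The deposited lists give the pileup (a coverage signal), the −log10 of the p-value and of the q-value, and a fold enrichment (ratio to the control), for each summit; all are the authors' values and were used only to rank, filter or describe regions within a list. IRF8 and PU.1 libraries had 7.25 to 24.7 M (mega) fragments; sites absent from a shallow list may lie under its threshold.

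Each region was used once, with its strongest summit. Genes and starts came from GENCODE vM21 on GRCm38, sequences from the GRCm38 assembly of RefSeq. Scripts ran in Python 3.11.15 with numpy 2.4.6, pandas 2.3.3 and scipy 1.17.1, and were tested on simulated lists with known answers. Groups came from the sample titles. Tests were exact sign-flip or label permutations over libraries. Rank matching used 5 strata of mean percentile, weighted by the co-bound sites. The named sites were, per class, the 6 of highest mean percentile, 1 per gene, with a fold of at least 3 in each library with a peak. Named genes were the 3 of each list with most co-bound sites, all with IRF8-only and no co-bound sites and all with PU.1-only sites, except that a few are not reported here; other genes given with values (among them Spi1, Trem2, C1qb, Tlr4, Usp18, Irf1 and Ifitm3) and the 50-base sequences were chosen after values were seen. The members and gene lists were chosen with earlier results of these data known. Alternatives covered overlap, consensus, thresholds, list length, each library left out, window and gene assignment.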

Additional observations from a re-analysis of the deposited data

Results flagged for a closer look

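P9 replicate 3 stood apart from the other P9 libraries in the share of IRF8-only sites it listed. It listed 5.25% of these sites, and the other 3 libraries listed 2.03 to 2.57%, a gap of 0.834 of the whole range. Of 6 measures looked at in this group this was the only one whose gap was that wide. For a single measure chance gives such a gap in about 1 of 20 groups, and over 6 measures more often. Its list held 2068 regions, against 1168 to 1366 in the other 3.

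The excess of co-bound over IRF8-only sites differed between stages by 20.3 percentage points, being higher at P14 than at P9 (exact permutation p = 0.02857). Within strata of adult IRF8 percentile the difference was 6.55 points and no longer passed (exact permutation p = 0.05714). The share of co-bound sites among the adult IRF8 sites that a library listed differed by -27.0 points, being lower at P14, where the lists held 7931 to 19243 regions against 1168 to 2068 at P9. None of these differences between stages can be told apart from list length. The p of the last is not given, and the other p values decide nothing about stage. The comparisons set 4 libraries against 3, for which 0.02857 is the smallest p possible.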

How the results depend on the processing

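The excess of co-bound over IRF8-only sites in younger microglia kept its direction and its side of the threshold under every alternative run for it, and the higher IRF8 rank of co-bound sites kept its direction under every one run for it, where no p could pass. With 1 library left out these were 20.4 to 27.5 points and 18.6 to 25.2 percentile points. Other values moved, and beyond the construction of each alternative the cause was not tested. With an IRF8 consensus of all 3 libraries there were 5156 IRF8-only and 1808 PU.1-only sites, 40.1% of IRF8 regions overlapped PU.1 and 66.3% of PU.1 regions overlapped IRF8. The promoter share was then 7.14 points higher in IRF8-only than in co-bound and 4.91 higher in co-bound than in PU.1-only sites, and the excess of PU.1 peaks in IRF8 knockout at co-bound over PU.1-only sites was 12.3 points. With a −log10 p of at least 10 there were 1830 co-bound, 7340 IRF8-only and 317 PU.1-only sites, 19.97% of IRF8 regions overlapped PU.1, the promoter differences were 4.51 and 0.454 points, the knockout difference 3.53 points, the WT H3K27ac difference between co-bound and IRF8-only sites 7.89 points, the summit distance 37.5 bp and the genes with a co-bound site 1377. With lists of equal length there were 4769 IRF8-only and 1450 PU.1-only sites, overlaps of 41.3 and 70.3%, promoter differences of 4.24 and 3.31 points and a knockout difference of 9.70 points. With sites free of any peak of the other factor, 254 PU.1-only sites stayed, the PU.1 rank difference was 22.3, the promoter difference between co-bound and PU.1-only sites 15.1, the WT H3K27ac difference 16.3 and the knockout difference 22.7 points. That promoter difference was 7.75 points with a −log10 q of at least 2 and 8.01 at the strongest summit. In the 2 alternatives added after seeing the data, the knockout difference was 14.6 points for 200 bp around the summit, and the composite element was 2.40 points more frequent at co-bound than IRF8-only sites within 200 bp of the summit, against 0.414 in the planned window.

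With each library left out in turn, co-bound sites numbered 3437 to 7461, IRF8-only sites 5296 to 10994 and PU.1-only sites 852 to 6228. The overlaps were 29.8 to 44.1% of IRF8 and 55.7 to 84.1% of PU.1 regions. The PU.1 rank difference was 16.8 to 32.7, the promoter differences 5.94 to 8.23 and 3.98 to 14.3 points, the knockout difference 12.04 to 42.1 points, the width difference 273 to 483 bp and the summit distance 68 to 113 bp. Leaving out IRF8 replicate 3 is also the analysis within batch 1. Without a PU.1 library the remaining list alone stands for the consensus. The composite difference in the planned window ranged from -0.397 to 0.513 points and changed sign without PU.1 replicate 1 (-0.0272) and without PU.1 replicate 2 (-0.397). The number of co-bound interferon genes was 0 to 4 and of homeostatic genes 12 to 18 over all alternatives. With a −log10 p of at least 10, co-bound genes fell from 15 to 8 among lineage factors, 5 to 1 in antigen presentation, 11 to 7 among lysosome and 6 to 2 among ubiquitous genes. No paired analysis was possible because the IRF8 libraries came from IRF8-EGFP mice and the PU.1 libraries from WT mice, so a shared number pairs nothing.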

Other observations

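An IRF8-only site lay at a median of 60977 bp from the nearest co-bound site, and 16.5% of IRF8-only sites had a co-bound site within 10 kb. A co-bound site lay at a median of 15610 bp from the nearest IRF8-only site, of which there were more, and 37.7% had one within 10 kb. A PU.1-only site lay at a median of 89322 bp from the nearest co-bound site and 29984 bp from the nearest IRF8-only site.

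PU.1-only sites with a peak in a single IRF8 library resembled promoters more than those with none: 16.5% of the 418 lay at promoters, against 6.30% of the 254 without any IRF8 peak. Repeat-masked bases made up 14.8, 14.3 and 15.4% of the windows of 100 bp on either side of the centres of co-bound, IRF8-only and PU.1-only sites, and 24.2 to 28.3% of windows 1 kb away.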
